A study of Mus musculus with 42 samples.

Results

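Il10 and 3 of the genes that lie beside it on mouse chromosome 1, Il19, Il24 and Mapkapk2, were followed in chromatin immunoprecipitation sequencing (ChIP-seq) of bone marrow-derived macrophages (BMDMs). The 4 genes were chosen by symbol, out of 21897 protein-coding genes of the mouse annotation. RNA polymerase II (Pol II) was read over each gene body with 500 bp on either side, and H3K27ac, the acetylated form of lysine 27 of histone H3 that sits on promoters and enhancers in use, was read in the 2500 bp on either side of each start and in every region between the genes. The BMDMs came from male C57Bl6/J mice aged 6 to 12 weeks, wild-type (WT) or carrying a whole-body deletion of Nr4a1, the gene of the nuclear receptor Nur77 (Nur77-KO, here KO), and were grown for 7 days in medium conditioned by L929 cells. By the study's methods the KO line was made by crossing mice with a loxP-flanked Nr4a1 to CMV-Cre mice and was bred on without the Cre, and the WT mice were littermates. The labels give the genotype of the KO samples as cre, so whether the Cre was still present is not settled here. Macrophages were left untreated (0 h) or received 100 ng/ml lipopolysaccharide (LPS), a bacterial cell wall component, for 1 h or 18 h. The 2 genotypes and 3 times make 6 groups, with 3 Pol II, 3 H3K27ac and 1 input library apiece, 42 libraries in all. The study's methods speak of biological replicates, but neither they nor the labels say whether the libraries came from separate mice or cultures, so the p-values measure the spread between these libraries. In a bulk culture a lower signal in every cell and the same signal in fewer cells cannot be told apart.

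IL-10 is a cytokine that macrophages release after Toll-like receptor stimulation and that restrains further production of inflammatory cytokines, through its receptor, JAK1, TYK2 and STAT3. Il19, Il20 and Il24 encode relatives of IL-10 that signal through the receptor chains IL-20RA, IL-20RB and IL-22RA1 and are best known from epithelium. Mapkapk2 encodes MK2, a kinase downstream of p38 MAP kinase that inactivates the mRNA-destabilizing protein tristetraprolin (Zfp36) and so prolongs the life of cytokine mRNAs. In mm10 the 4 genes fall within 220.752 kb together with Il20. Il24 lies at chr1:130882074-130887454 (minus strand), Il20 at chr1:130906985-130911451 (minus), Il19 at chr1:130932656-130940115 (minus), Il10 at chr1:131019845-131024974 (plus) and Mapkapk2 at chr1:131053700-131097826 (minus). Il10 thus reads towards the 3′ end of Mapkapk2, and the start of Mapkapk2 is 77.981 kb beyond the start of Il10. Positions below are given in kb from the Il10 start, negative towards Il24.

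The values are HOMER region lists, one per library, in which a region carries its tags (sequenced fragments) scaled to 10000000 tags per library. A gene or window received the tags of each region in proportion to the overlap, and a value of 0 says that no region was called there, not that no read fell there. Over the locus, the regions of all libraries merged into 18 H3K27ac regions and 8 Pol II regions. Of the 18 H3K27ac regions, 6 were found in all 18 H3K27ac libraries, with midpoints at -101.1, -30.6, -1.0, +6.3, +31.5 and +71.0 kb, and 12 overlap no gene. The -101.1 kb region (chr1:130915925-130921581) is intergenic, between the Il20 start and the 3′ end of Il19. The -1.0 kb region (chr1:131014304-131023385) spans the Il10 start, the +6.3 kb region (chr1:131024022-131028172) the 3′ end of Il10, the +31.5 kb region (chr1:131048570-131054198) the 3′ end of Mapkapk2, and the +71.0 kb region (chr1:131064509-131117088) the 5′ part of Mapkapk2 and its start.

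The middle 300 bases of 3 of these regions are printed here because each held an AP-1 site and lay in a region that gained H3K27ac after 1 h of LPS in WT. AP-1 is the Fos and Jun family of LPS-responsive transcription factors. Capitals mark the AP-1 letters, read on the plus strand of GRCm38.
Region at -101.1 kb, chr1:130918603-130918902: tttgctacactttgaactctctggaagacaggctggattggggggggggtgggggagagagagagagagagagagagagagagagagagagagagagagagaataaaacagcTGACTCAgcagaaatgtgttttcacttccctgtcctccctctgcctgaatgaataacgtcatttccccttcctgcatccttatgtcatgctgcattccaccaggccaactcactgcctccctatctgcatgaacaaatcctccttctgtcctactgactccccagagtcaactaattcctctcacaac
Region at +6.3 kb, chr1:131025947-131026246: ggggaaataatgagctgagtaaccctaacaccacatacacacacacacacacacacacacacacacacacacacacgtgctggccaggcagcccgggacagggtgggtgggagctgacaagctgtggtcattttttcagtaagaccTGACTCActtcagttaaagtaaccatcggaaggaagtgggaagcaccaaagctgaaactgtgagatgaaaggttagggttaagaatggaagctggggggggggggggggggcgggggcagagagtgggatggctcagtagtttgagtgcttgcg
Region at +31.5 kb, chr1:131051234-131051533: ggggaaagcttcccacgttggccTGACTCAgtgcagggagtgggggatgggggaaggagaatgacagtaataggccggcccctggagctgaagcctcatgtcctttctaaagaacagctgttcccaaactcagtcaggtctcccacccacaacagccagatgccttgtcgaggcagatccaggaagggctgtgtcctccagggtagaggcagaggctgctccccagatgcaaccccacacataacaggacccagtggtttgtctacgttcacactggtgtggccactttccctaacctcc

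The letters searched, on both strands, were TGAGTCA (reverse TGACTCA) for AP-1, TGACGTCA for the cyclic AMP response element (CRE), AAAGGTCA for the Nur77 response element NBRE, TGCTGAC for a Maf half-site, and the NF-kB site by name; no motif contains another. Of the 18 locus windows, 5 held a match, each to AP-1 (at -101.1, -21.9, +6.3, +14.2 and +31.5 kb). Among the middle 300 bases of 65179 H3K27ac regions of the genome, 9.95% held AP-1 letters, 0.39% CRE, 1.55% NBRE, 5.47% a Maf half-site and 5.95% an NF-kB site. Among 27025 RefSeq promoters of the same length the shares were 5.17%, 1.88%, 1.46%, 4.58% and 8.18%. RefSeq (GRCm38.p6) promoters matched 2 of the 4 members, Il19 and Mapkapk2. The Il19 promoter held 1 NF-kB site, 77 bases before the start, and the promoter of Mapkapk2, the member with the highest H3K27ac at its start, held none of the motifs in the 250 bases before and 50 after the start.
Mapkapk2 promoter, chr1:131097794-131098093, minus strand: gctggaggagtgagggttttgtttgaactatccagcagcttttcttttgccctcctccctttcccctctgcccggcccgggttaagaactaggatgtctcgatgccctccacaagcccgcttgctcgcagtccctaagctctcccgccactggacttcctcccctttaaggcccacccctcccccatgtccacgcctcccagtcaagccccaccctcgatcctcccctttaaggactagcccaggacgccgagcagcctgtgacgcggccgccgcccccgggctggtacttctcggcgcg

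Sequencing depth, in megatags, was 21.73 to 36.12 for Pol II, 13.51 to 31.15 for H3K27ac in WT, 23.56 to 55.37 for H3K27ac in KO, and 25.6 to 45.31 for input. The KO input at 18 h listed 27554 regions over the genome, against 64725 to 108461 in the other inputs. Its values of 0 below are thus not particular to the locus. Pol II over the whole Nr4a1 gene at 0 h was 195 ± 11.3 normalized tags in WT and 78.0 ± 8.96 in KO (SD, n = 3 each), and at 1 h it was 26.3 in WT and 36.4 in KO. The deleted part of the gene is not resolved by this sum. All 8 macrophage markers had Pol II and H3K27ac in every library, while the mast cell or basophil markers (3 of 3) and the fibroblast markers (3 of 3) were at 0 throughout. Of 5 T cell markers Cd3e and Cd8a were at 0, while 3 had Pol II in every library (137 to 238 tags summed over the list) and 0 had H3K27ac in every library (0 to 18.1). Of 4 B cell markers 1 had Pol II in every library (41.4 to 161 tags summed) and 1 H3K27ac (106 to 363), with Pax5 at 0 for both. Of 4 neutrophil markers 0 had Pol II in every library (0 to 8.10 tags summed) and 1 H3K27ac (16.1 to 66.3), with Ly6g and Mpo at 0, and 3 epithelial markers summed to 0 to 6.9 tags of Pol II and 0 of H3K27ac. Their part in the results was not tested. A pair of H3K27ac libraries differed from the other libraries of their groups. Over 22090 regions found in all 18 libraries, KO replicate 1 at 1 h correlated at 0.98 to 0.982 with the WT libraries of that time and at 0.906 to 0.909 with the other KO libraries. The other KO libraries at 1 h correlated with each other at 0.996 and with WT at 0.889 to 0.898. At 1 h KO replicate 1 thus stood with WT, and the other KO libraries stood apart from both. KO replicate 1 at 18 h correlated at 0.904 to 0.907 with WT and at 0.911 to 0.912 with the other KO libraries, which correlated at 0.979 to 0.982 with WT and 0.995 with each other. Whether these 2 libraries carry the right labels was not tested, and the KO values with all libraries at 1 h and 18 h rest on those labels. H3K27ac differences between genotypes at these times are therefore given with all libraries, without KO replicate 1 at 1 h and 18 h, and with that replicate as the only KO library there. All groups of a fit share one estimate of the spread, so leaving out these libraries moves the p-values of the other comparisons too.

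Pol II at Il10 was lower in untreated KO than in untreated WT macrophages, rose with LPS in both genotypes, and rose by the larger factor in KO. At 0 h the 3 WT libraries had 89.6, 102 and 84.7 normalized tags over Il10 and the 3 KO libraries 39.8, 58.7 and 38.5. Every KO library was below every WT library, with means of 92.2 ± 9.06 and 45.7 ± 11.3 (SD, n = 3). The KO value was 0.539 of the WT value on the log2(tags + 10) scale, a log2 difference of -0.89 (95% interval -1.16 to -0.62; limma, adjusted p = 0.0002); 6.96% of all genes passed the same test in this comparison. Called regions covered 5.432, 5.493 and 5.094 kb of the 6.13 kb Il10 window in WT and 2.612, 4.212 and 2.728 kb in KO. Within the covered stretch the density was 16.5, 18.6 and 16.6 tags per kb in WT and 15.3, 13.9 and 14.1 in KO. KO differed from WT more in the length called than in the density within it, and in the 500 bp on either side of the Il10 start the log2 difference was -0.24 (adjusted p = 0.16). The input of untreated KO cells carried 41.9 tags over Il10, close to the KO Pol II values, and that of untreated WT cells 17.7.

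After 1 h of LPS, Pol II over Il10 reached 246, 284 and 226 tags in WT and 231, 203 and 214 in KO, and the 2 sets overlapped. The rise from 0 h was 2.56-fold in WT (log2 1.36, adjusted p = 2.1e-08) and 4.11-fold in KO (log2 2.04, adjusted p = 9.2e-11), in limma fits in which 86.9% and 82.9% of all genes changed. At 18 h the WT libraries had 156, 171 and 174 tags and the KO libraries 146, 136 and 134, so that every KO library was again the lower. Il10 stayed above its own 0 h level at 18 h, by 1.73-fold in WT (adjusted p = 3e-05) and 2.70-fold in KO (adjusted p = 1.8e-08; limma), where 66.5% and 70.2% of genes changed.

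The genotypes did not pass the test against each other after LPS: the log2 difference KO - WT was -0.21 at 1 h (95% interval -0.48 to 0.06, adjusted p = 0.19) and -0.25 at 18 h (-0.52 to 0.02, adjusted p = 0.18), against 45.7% and 21.1% of genes called by limma. At 1 h the median of all genes tested for KO - WT was itself 0.24, and with libraries centred on their medians the Il10 difference at 1 h was -0.46 (adjusted p = 0.013). The difference between the LPS responses of the genotypes was 0.68 at 1 h (SE 0.18, adjusted p = 0.015) and 0.64 at 18 h (SE 0.18, adjusted p = 0.024; limma), comparisons in which 18.4% and 14.8% of genes were called. Both rest on the low KO values at 0 h, which are shared between them. Over the 500 bp around the start they were 0.07 and 0.05 (adjusted p = 0.8 and 0.89), and without replicate 1 of every group they were 0.57 and 0.51, with adjusted p of 0.15 and 0.28. Without replicate 3 they were 0.58 and 0.65, with adjusted p of 0.16 and 0.13. Median centring gave 0.46 at 1 h (adjusted p = 0.1), and a pseudocount of 50 gave 0.38 at 18 h (adjusted p = 0.053).

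**Figure D1:**
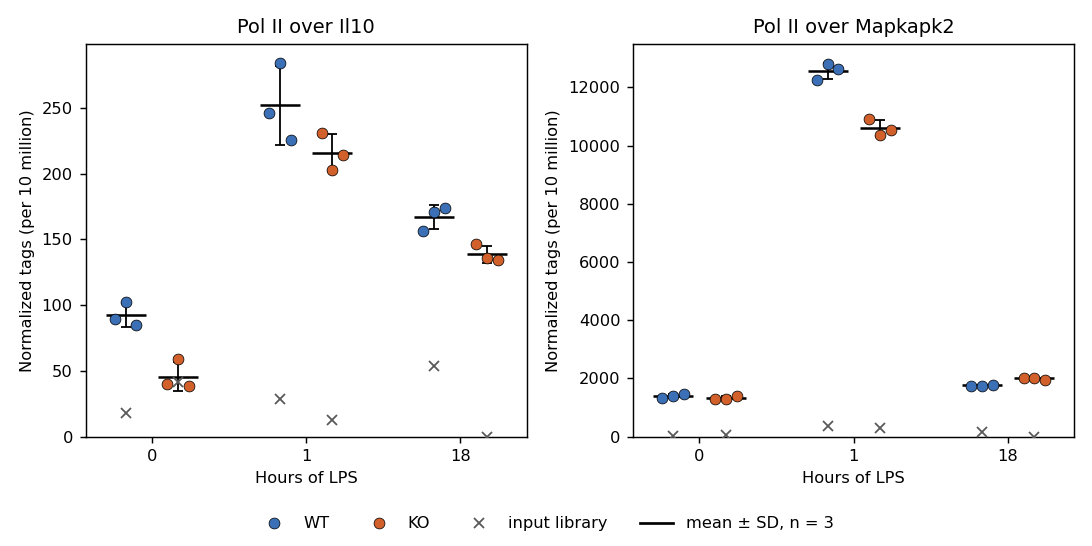
Pol II over Il10 and Mapkapk2 by genotype and hours of LPS, in normalized tags (linear axis from 0). Points are libraries, bars the mean with SD (n = 3), and crosses the input library of the group. Il10 in KO at 0 h (45.7 tags) sits at the level of its input (41.9), while Mapkapk2 at 1 h lies at 10377 tags or more in all 6 libraries.

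Pol II at Mapkapk2 rose several-fold in both genotypes at 1 h and at 18 h was still above its untreated level, by 1.27-fold in WT (log2 0.34, adjusted p = 6.4e-06) and 1.51-fold in KO (log2 0.59, adjusted p = 4.3e-09; limma). In WT the 18 h value was 0.02 after quantile normalization (adjusted p = 0.59). Untreated WT libraries had 1324, 1400 and 1454 tags over the 44.127 kb gene and KO libraries 1282, 1299 and 1389. The 2 sets overlapped, with a log2 difference of -0.07 (95% interval -0.17 to 0.03, adjusted p = 0.45). At 1 h WT had 12247, 12804 and 12646 tags and KO 10902, 10377 and 10552. Every KO library was below every WT library, with a difference of -0.24 on the log2 scale (95% interval -0.34 to -0.14, limma adjusted p = 0.00065), a direction opposite to the all-gene median of 0.24. Without replicate 2 of every group the difference was -0.21 (adjusted p = 0.058). The rise from 0 h was 8.97-fold in WT (adjusted p = 5.8e-19) and 7.97-fold in KO (adjusted p = 1.1e-18; limma), and the difference of these rises was -0.17 (95% interval -0.31 to -0.03, adjusted p = 0.086). That difference was -0.39 (adjusted p = 0.00054) after median centring and 0.04 (adjusted p = 0.72) after quantile normalization.

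At 18 h the order was the other way round, with 1754, 1754 and 1783 tags in WT and 2026, 2025 and 1952 in KO. KO exceeded WT by 0.18 (95% interval 0.08 to 0.28, limma adjusted p = 0.012) and its rise over 0 h was larger by 0.25 (adjusted p = 0.017). Without replicate 2 of every group these were 0.17 and 0.22, with adjusted p of 0.18 and 0.22, and without replicate 3 they were 0.21 and 0.28, with adjusted p of 0.054 and 0.077. Without replicate 1 the second was 0.25 (adjusted p = 0.055). In the 500 bp on either side of the start they were 0.15 and 0.20 (adjusted p = 0.16 and 0.21), and without the variance trend 0.18 and 0.25 (adjusted p = 0.063 and 0.083). The Pol II region over Mapkapk2 also lengthened at 1 h. At 0 h the longest called region ran from between +21.24 and +23.86 kb to between +79.2 and +81.3 kb in WT. At 1 h it was 71.58 to 73.94 kb long across both genotypes and began nearer to Il10, at +13.07 to +15.03 kb, and at 18 h it was back to 54.7 to 57.2 kb. At every time it began beyond the 3′ end of Mapkapk2. Input over Mapkapk2 was also highest at 1 h, at 350 tags in WT and 299.1 in KO against 33.5 and 68.3 at 0 h; its part in the Pol II change was not tested.

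Il19 and Il24 were at 0 in all 36 ChIP libraries, for both Pol II and H3K27ac, as was Il20 between them. No region was called over these genes before or after LPS in either genotype, so neither was tested. The 1 value above 0 was in an input library, the untreated KO input, which listed 5.08 tags at Il19. Per kb of gene, mean Pol II at Il10 was 15.0, 41.1 and 27.2 tags at 0, 1 and 18 h in WT and 7.45, 35.2 and 22.6 in KO. Mapkapk2 had 30.9, 278.5 and 39.1 tags per kb in WT and 29.3, 235.1 and 44.3 in KO, above Il10 in every group. Among genes above 0 in the same group, Il10 stood at percentiles 66.7, 88.1 and 76.3 in WT and 50.3, 85.4 and 73.0 in KO, and Mapkapk2 at percentiles between 80.9 and 99.0.

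H3K27ac at the Il10 start had a lower mean in KO than in WT at each time, a difference that passed the test at 1 h, and no LPS response there passed with all libraries. At 0 h the WT libraries had 220, 194 and 213 tags in the 5 kb window around the start and the KO libraries 158, 152 and 160. At 1 h WT had 251, 256 and 243 and KO 247, 173 and 157, the 247 being KO replicate 1. At 18 h WT had 208, 238 and 221 and KO 159, 190 and 153. The groups did not overlap at 0 h and 18 h, and at 1 h only KO replicate 1 reached the WT range. The log2 differences KO - WT were -0.39 (95% interval -0.67 to -0.12), -0.39 (-0.66 to -0.12) and -0.40 (-0.67 to -0.13). Of these only the 1 h value passed the limma test (adjusted p = 0.24, 0.046 and 0.097), where 0.77%, 18.5% and 3.24% of all starts were called. The 1 h value was -0.31 without replicate 2 of every group (adjusted p = 0.52) and -0.28 without replicate 3 (adjusted p = 0.48). It was -0.39 but not called with the replicate block, with no filter or with no variance trend (adjusted p = 0.06, 0.093 and 0.053), and -0.38 in a 1000 bp window (adjusted p = 0.067).

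Without KO replicate 1 at 1 h and 18 h the differences were -0.39, -0.57 and -0.36, and all 3 passed (limma, adjusted p = 0.0057, 4.7e-05 and 0.0089). In this fit 10.4%, 59.8% and 19.1% of all starts were called. At 1 h it leaves out the KO library most like WT, which widens the difference. With KO replicate 1 alone at those times the 1 h difference was -0.02 (adjusted p = 0.91) and the 18 h difference -0.46 (adjusted p = 0.0011). LPS moved the start window by 0.25 at 1 h in WT (95% interval -0.02 to 0.52, adjusted p = 0.11) and 0.26 in KO (-0.01 to 0.53, adjusted p = 0.11), and by 0.09 and 0.08 at 18 h. Without KO replicate 1 the 1 h rise was 0.25 in WT (adjusted p = 0.009) and 0.07 in KO (adjusted p = 0.48), and with that replicate alone it was 0.25 (adjusted p = 0.0028) and 0.62 (adjusted p = 0.0001; limma). The difference between the genotypes' responses was 0.01 at 1 h (95% interval -0.38 to 0.39), where 0.543% of starts were called, and 0.00 at 18 h (-0.39 to 0.38), where 0.63% were. In input the window held 22.1, 31.0 and 65.9 tags in WT at the 3 times, in that order, and 55.9, 18.1 and 0 in KO.

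H3K27ac assigned to the 5 kb around the Mapkapk2 start was higher after 1 h of LPS in WT than at 0 h and lower at 18 h, values that depend on how regions were joined. WT libraries had 518, 496 and 515 tags untreated. They had 797, 820 and 819 after 1 h, then 328, 332 and 335 after 18 h. The rise was 0.66 (limma, adjusted p = 0.027) and the fall -0.60 (adjusted p = 0.045), in comparisons where 54.6% and 50% of starts changed. Without replicate 2 of every group neither passed (0.64 and -0.63, adjusted p = 0.12 and 0.14), nor without replicate 3 (0.66 and -0.61, adjusted p = 0.1 and 0.14). The rise was also not called with no filter on low values (0.66, adjusted p = 0.081), after quantile normalization (0.56, adjusted p = 0.063) or in a 1000 bp window (0.18, adjusted p = 0.51). The fall was not called after centring (-0.61, adjusted p = 0.059), with no filter (-0.60, adjusted p = 0.13) or with no variance trend (-0.60, adjusted p = 0.055). KO libraries had 557, 294 and 532 tags untreated, 795, 461 and 337 after 1 h, then 305, 344 and 337 after 18 h. The KO libraries spread more widely than the WT libraries at 0 h and 1 h. The KO changes of 0.17 at 1 h (adjusted p = 0.59) and -0.42 at 18 h (adjusted p = 0.15) did not pass, against 46.9% and 52.6% of starts called. KO replicate 1 was the sample with 795 tags at 1 h. The difference KO - WT at 1 h was -0.69 (95% interval -1.20 to -0.19, adjusted p = 0.053) with it and -1.02 (adjusted p = 0.00036; limma) without it. The KO change at 1 h was -0.17 without that replicate (adjusted p = 0.47) and 0.83 with it alone (adjusted p = 0.023). Tags were shared evenly over each called region, and the region that held the start differed in length between groups. It was 4.612 to 5.127 kb long in the WT libraries at 0 h, 27.6 to 27.8 kb at 1 h and 9.181 to 10.23 kb at 18 h. In KO it was 4.812, 9.499 and 4.922 kb at 0 h, the second being the library with 294 tags, 18.41 to 34.42 kb at 1 h and 10.04 to 20.65 kb at 18 h. The 18 h fall in WT was thus measured between regions of unequal length, and the whole 52.58 kb region around it did not fall in WT (log2 0.26 at 18 h against 0 h, adjusted p = 0.02).

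**Figure D2:**
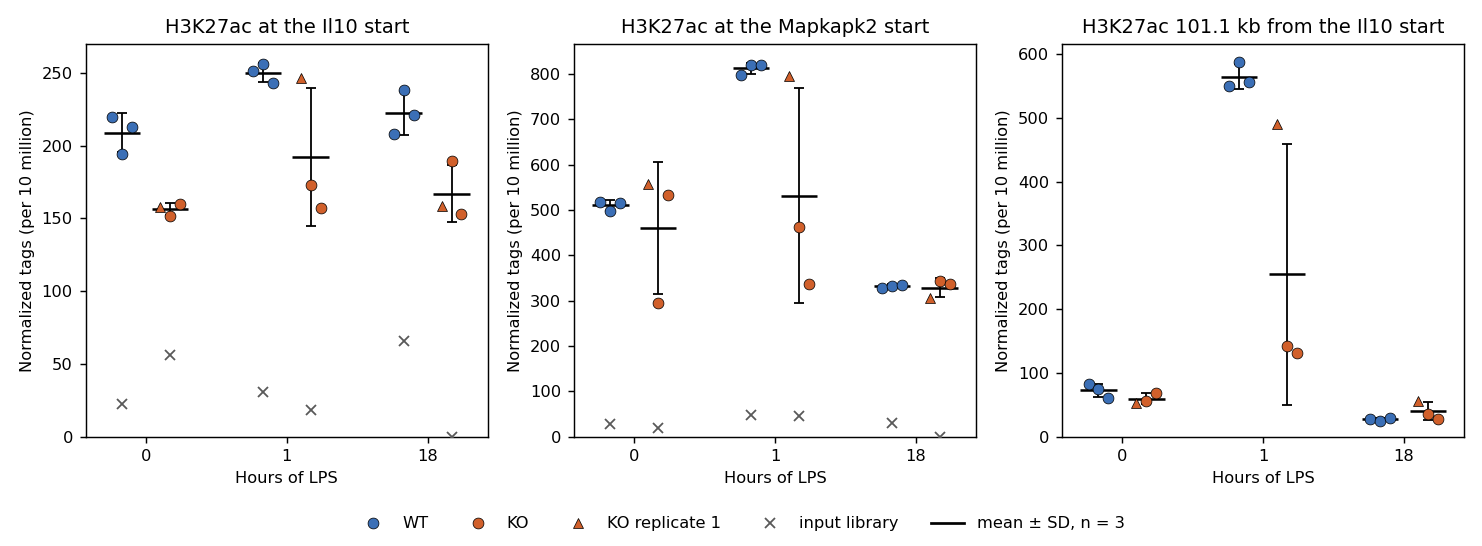
H3K27ac in the 5 kb around the Il10 start, the 5 kb around the Mapkapk2 start and the -101.1 kb region, in normalized tags against hours of LPS. Points are libraries, bars the mean with SD (n = 3), triangles KO replicate 1 and crosses the input (first 2 panels). At 1 h the triangle (247, 795 and 490.9 tags) lies inside the WT range in the first panel and below every WT library in the other 2, and in each panel it is the highest of the KO libraries.

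The merged regions carried changes that the start windows did not. The -1.0 kb region, which runs from -5.541 to +3.54 kb, had 251.3, 221.6 and 241.6 tags in WT and 183.2, 177.9 and 183.5 in KO at 0 h, and the groups did not overlap. At 1 h it had 406.9, 398.2 and 384.9 in WT and 379.8, 258.2 and 243.5 in KO. LPS raised it at 1 h by 0.71 in WT (limma, adjusted p = 0.00038) and 0.64 in KO (adjusted p = 0.0014), where 67.3% and 54.7% of regions changed. The difference KO - WT was -0.37 at 0 h (adjusted p = 0.18), -0.45 at 1 h (adjusted p = 0.026) and -0.21 at 18 h (adjusted p = 0.35), against 4.25%, 34.1% and 10.7% of regions called by limma. Without KO replicate 1 the 1 h value was -0.64 (adjusted p = 1.6e-05), and with that replicate alone it was -0.06 (adjusted p = 0.54). Without replicate 2 or replicate 3 of every group it was -0.37 and -0.35 (adjusted p = 0.3 and 0.34). The 18 h value without KO replicate 1 was -0.12 (adjusted p = 0.3), with it alone -0.40 (adjusted p = 0.00061), and the 0 h value passed in both fits (-0.37, adjusted p = 0.0043 and 0.00068). The KO rise at 1 h was 0.45 without it (adjusted p = 0.0004) and 1.03 with it alone (adjusted p = 8e-07). The change from 0 h to 18 h was 0.48 in KO (adjusted p = 0.0075) and 0.32 in WT (adjusted p = 0.056; limma), where 66.7% and 64% of regions were called. The KO change was 0.57 without KO replicate 1 (adjusted p = 3.2e-05) and 0.30 with it alone (adjusted p = 0.0028), but was not called without replicate 2 or replicate 3 of every group (0.33 and 0.53, adjusted p = 0.15 and 0.051). The WT change was called after centring (0.50, adjusted p = 0.019), after quantile normalization (0.41, adjusted p = 0.032) and without replicate 1 of every group (0.34, adjusted p = 0.017).

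Of the 6 regions found in every library, the -101.1 kb region between Il20 and Il19 had the largest H3K27ac response to LPS in WT. WT libraries had 82.1, 74.3 and 61.0 tags untreated, 550.5, 587.5 and 555.4 after 1 h, then 28.3, 23.8 and 28.9 after 18 h. The mark thus rose by 2.81 on the log2 scale at 1 h (adjusted p = 4.1e-06) and by 18 h was 1.15 below its untreated level (log2 -1.15, adjusted p = 0.0087; limma). The fall was -0.79 after quantile normalization (adjusted p = 0.063) and -1.07 without replicate 2 of every group (adjusted p = 0.12). KO libraries had 53.1, 55.4 and 68.8 tags untreated, 490.9, 142.0 and 131.4 after 1 h, then 56.1, 35.9 and 27.7 after 18 h. All 3 KO libraries at 1 h were above all KO libraries at 0 h and below all WT libraries at 1 h, but 1 of them, replicate 1, had over 3 times the tags of the others. The KO rise at 1 h was 1.68 (adjusted p = 0.00076) and the difference KO - WT at 1 h was -1.38 (SE 0.34, adjusted p = 0.0097; limma). At 0 h and 18 h the difference was -0.25 (adjusted p = 0.86) and 0.39 (adjusted p = 0.5), the latter 0.17 without KO replicate 1 (adjusted p = 0.33) and 0.84 with it alone (adjusted p = 0.0015).

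Whether the 1 h response of this region differed between genotypes depended on KO replicate 1. The difference of responses was -1.13 with all libraries (adjusted p = 0.15; 4.95% of regions called), -1.72 without that replicate (adjusted p = 2.3e-06; limma) and 0.06 with that replicate alone (adjusted p = 0.9). The difference KO - WT at 1 h was -1.97 without it (adjusted p = 1.6e-08) and -0.20 with it alone (adjusted p = 0.42). Without replicate 2 or replicate 3 of every group this 1 h difference was -1.08 and -1.07 (adjusted p = 0.3 and 0.23). The KO rise at 1 h passed in both fits, without KO replicate 1 at 1.09 (adjusted p = 4.8e-06) and with it alone at 2.86 (adjusted p = 3.1e-07). The KO change at 18 h was -0.50 with all libraries (adjusted p = 0.21), -0.73 without KO replicate 1 (adjusted p = 0.00016; limma) and -0.06 with it alone. Pol II was called over the same place at 1 h in all 6 libraries, at 70.8, 51.8 and 61.9 tags in WT and 74.7, 87.0 and 74.4 in KO. At 0 h it was called in 1 WT library (4.98 tags) and 2 KO libraries (7.19 and 5.93), and at 18 h in none. The Pol II rise was 2.63 in WT (adjusted p = 4.4e-09) and 2.66 in KO (adjusted p = 4.3e-09; limma), where 82.5% and 80.8% of Pol II regions changed. As the 0 h values were 0 or small, the size of the rise depends on the pseudocount. Over the settings it ran from 1.1 to 5.1 in WT and from 1.2 to 4.4 in KO. The Pol II difference KO - WT at 1 h was 0.32 (adjusted p = 0.19; 51.8% of regions called), with KO libraries all above WT, and it was -0.03 (adjusted p = 0.92) after median centring. Over the alternatives it reached 0.44 at most, and 1 alternative called it (lowest limma adjusted p = 0.025). Input over the H3K27ac region was highest at 1 h, with 12.8, 49.6 and 7.42 tags in WT over the 3 times and 0, 40.4 and 0 in KO. Over the Pol II region at 1 h it was 33.0 in WT and 34.2 in KO. Its part in these changes was not tested.

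**Figure D3:**
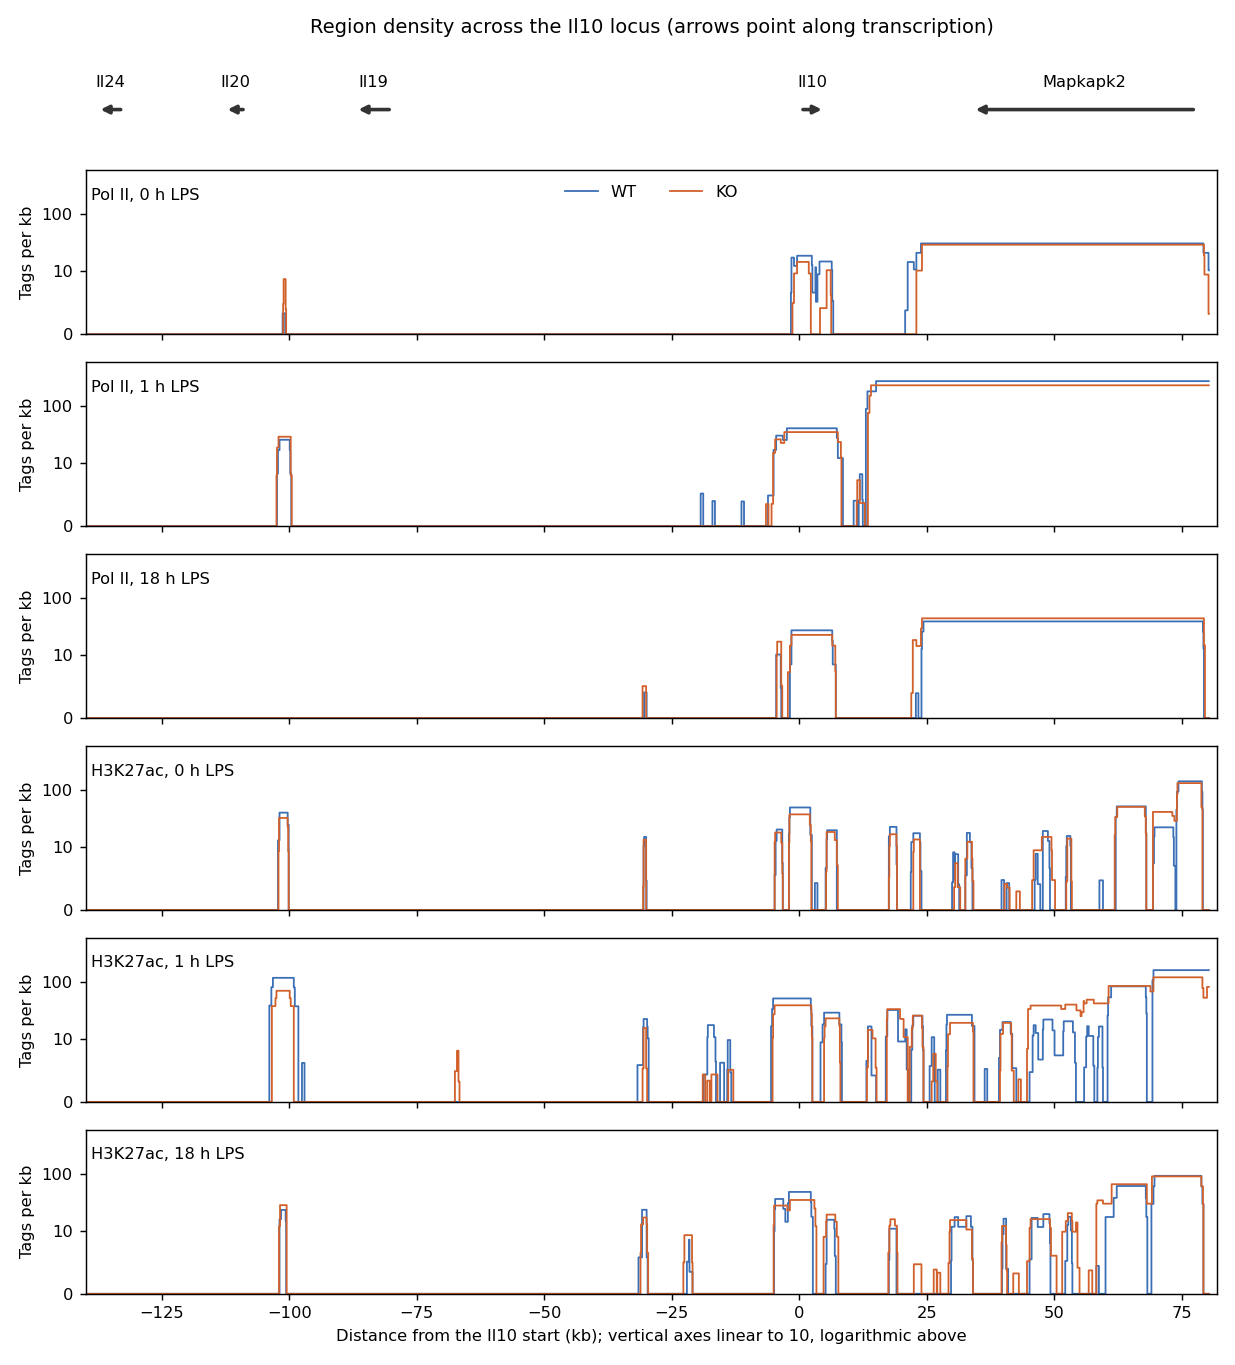
Mean H3K27ac and Pol II (normalized tags per kb; axis linear to 10 and logarithmic above) against distance from the Il10 start in kb, by genotype and hours of LPS (n = 3 libraries a line). No signal is drawn over Il24, Il20 or Il19, and between Il20 and Il19 lie the -101.1 kb region, with means of 564 tags in WT and 255 in KO at 1 h, and a 0.5 kb region at -97.3 kb called in 1 WT library at 1 h (9.26 tags).

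The -30.6 kb, +6.3 kb and +31.5 kb regions also gained H3K27ac at 1 h in WT. The -30.6 kb region had 33.3, 15.3 and 33.0 tags in WT at 1 h and 14.9, 8.49 and 6.84 in KO. It rose by 1.05 in WT (adjusted p = 0.0031) and by 0.21 in KO (adjusted p = 0.53), and KO - WT was -0.87 (adjusted p = 0.025; limma), or -1.03 (adjusted p = 0.00085) without KO replicate 1 and -0.54 (adjusted p = 0.23) with it alone. The KO rise was 0.04 (adjusted p = 0.87) and 0.54 (adjusted p = 0.13) in these fits. The WT rise was not called without replicate 3 of every group (0.90, adjusted p = 0.077). Without replicate 2 or replicate 3 of every group the KO - WT difference was -1.08 and -0.63 (adjusted p = 0.12 and 0.37). At the +6.3 kb region the 1 h values were 97.4, 117.6 and 93.9 in WT and 96.4, 52.0 and 56.6 in KO. The rise was 1.16 in WT (adjusted p = 0.0031) and 0.74 in KO (adjusted p = 0.047). The WT rise was not called without replicate 2 of every group (1.09, adjusted p = 0.071) or with a common density floor (1.16, adjusted p = 0.19). The KO rise lost its call under 8 of 14 alternatives: without replicate 1, 2 or 3 of every group (0.29, 0.94 and 0.99, adjusted p = 0.18, 0.13 and 0.076), with a pseudocount of 1 (0.88, adjusted p = 0.057), with a common density floor (1.33, adjusted p = 0.15), and, at 0.74, with no filter, with a region required in every library or with the replicate block (adjusted p = 0.064, 0.051 and 0.056). It was 0.50 (adjusted p = 0.038) without KO replicate 1 and 1.22 (adjusted p = 0.0027) with it alone. KO - WT was -0.57 (adjusted p = 0.15), -0.81 (adjusted p = 0.0026) without KO replicate 1 and -0.08 (adjusted p = 0.86) with it alone. The +31.5 kb region, at the 3′ end of Mapkapk2, is the one whose 3 KO libraries lay close together at 1 h, at 97.0, 95.9 and 83.9 tags against 144.8, 137.6 and 140.3 in WT. There the rise was 2.02 in WT (adjusted p = 1.2e-05) and 1.69 in KO (adjusted p = 0.00011), and the groups did not overlap, although KO - WT of -0.56 did not pass (limma, adjusted p = 0.12), nor did -0.60 without KO replicate 1 (adjusted p = 0.1) or -0.50 with it alone (adjusted p = 0.49). The difference was called with a pseudocount of 50 (-0.43, adjusted p = 0.046) and without replicate 1 of every group (-0.58, adjusted p = 0.039). The KO rise was 1.66 (adjusted p = 0.00036) without KO replicate 1 and 1.76 (adjusted p = 0.0092) with it alone.

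Of the 12 regions found in fewer libraries, 8 could be tested between genotypes at 1 h. KO - WT was called for 2 of these 8, beside 34.1% of all H3K27ac regions tested. The -17.5 kb region was found at 1 h alone, with 32.2, 22.8 and 29.2 tags in WT and 21.81, 0 and 5.05 in KO (KO - WT -1.17, adjusted p = 0.0074; limma). Its difference was -1.63 without KO replicate 1 (adjusted p = 5.4e-07) and -0.25 with it alone (adjusted p = 0.13). The -67.1 kb region was found in 2 libraries, KO replicates 1 and 3 at 1 h, with 9.66 and 4.84 tags, and could not be tested without KO replicate 1. It entered the test through that group alone, so its KO - WT call (0.51, limma adjusted p = 0.029) could only be positive. The size of that value depends on the pseudocount, and no genotype difference is read from it. The other 6 tested regions, at -13.6, +14.2, +19.2, +23.0, +26.6 and +41.3 kb, had KO - WT differences at 1 h from -0.41 to 0.25, and none was called with all libraries. Without KO replicate 1 the +14.2 kb region was higher in KO (0.44, adjusted p = 0.011) and the -13.6 kb region lower (-0.64, adjusted p = 0.016), and with it alone the +26.6 kb region was lower (-1.0, adjusted p = 0.0037). The regions at -17.5, +14.2 and +26.6 kb were at 0 in every WT library at 0 h. Their WT values at 1 h of 1.92, 1.4 and 1.00 (adjusted p = 2e-05, 1.1e-05 and 0.0021; limma) could thus only point up, and their size depends on the pseudocount. LPS at 1 h in WT raised the regions at +19.2 and +41.3 kb, by 1.19 and 2.06 (adjusted p = 0.012 and 1.7e-06; limma), where 67.3% of all regions were called. In KO it raised those at +19.2, +23.0 and +41.3 kb, by 1.80, 1.26 and 1.71 (adjusted p = 0.001, 0.0062 and 1.8e-05; limma), where 54.7% of all regions were called. The regions at -67.1, -17.5 and +14.2 kb were at 0 in every KO library at 0 h. Their KO values of 0.51, 0.75 and 1.59 (adjusted p = 0.017, 0.031 and 4.9e-06; limma) could likewise only point up. The KO rises at -67.1 and -17.5 kb could not be tested without KO replicate 1, and with it alone they were 0.98 and 1.67. The KO rise at +26.6 kb, also from 0 in every KO library at 0 h, was 0.59 with all libraries (adjusted p = 0.053) and 0.88 without that replicate (adjusted p = 0.0021; limma). The other 4 KO rises were called without that replicate.

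The 52.58 kb region over the 5′ part of Mapkapk2 held more H3K27ac tags than the other 5 regions found in every library. It had 5188, 5289 and 5370 tags in WT at 1 h and 5224, 4177 and 4100 in KO, with KO replicate 1 inside the WT range. The 1 h rise was 1.49 in WT (adjusted p = 2.7e-09) and 1.28 in KO (adjusted p = 1.9e-08), and the KO rise was 1.17 (adjusted p = 2e-11) without KO replicate 1 and 1.51 (adjusted p = 7.9e-10) with it alone. The change from 0 h to 18 h was 0.26 in WT (adjusted p = 0.02) and 0.32 in KO (adjusted p = 0.0051; limma). The WT value was not called after quantile normalization (0.03, adjusted p = 0.81), with no variance trend (0.26, adjusted p = 0.057) or without replicate 2 or 3 of every group (0.26 and 0.23, adjusted p = 0.16 and 0.14). The KO value was not called after quantile normalization (0.22, adjusted p = 0.06) or without replicate 2 (0.35, adjusted p = 0.063), and was 0.24 without KO replicate 1 (adjusted p = 4.8e-05) and 0.48 with it alone (adjusted p = 2.6e-06). KO - WT at 1 h was -0.24 (adjusted p = 0.049), -0.35 without KO replicate 1 (adjusted p = 2.1e-06) and -0.02 with that replicate alone (adjusted p = 0.8). Without replicate 2 or replicate 3 of every group it was -0.19 and -0.16 (adjusted p = 0.47 and 0.44), after quantile normalization -0.15 (adjusted p = 0.21), and it was -0.24 but not called with no filter, no variance trend or a region required in every library (adjusted p = 0.076, 0.11 and 0.056). The difference of the 1 h responses was -0.21 (adjusted p = 0.28) with all libraries and -0.32 (adjusted p = 0.00014) without KO replicate 1, and 0.02 with that replicate alone.

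**Figure D4:**
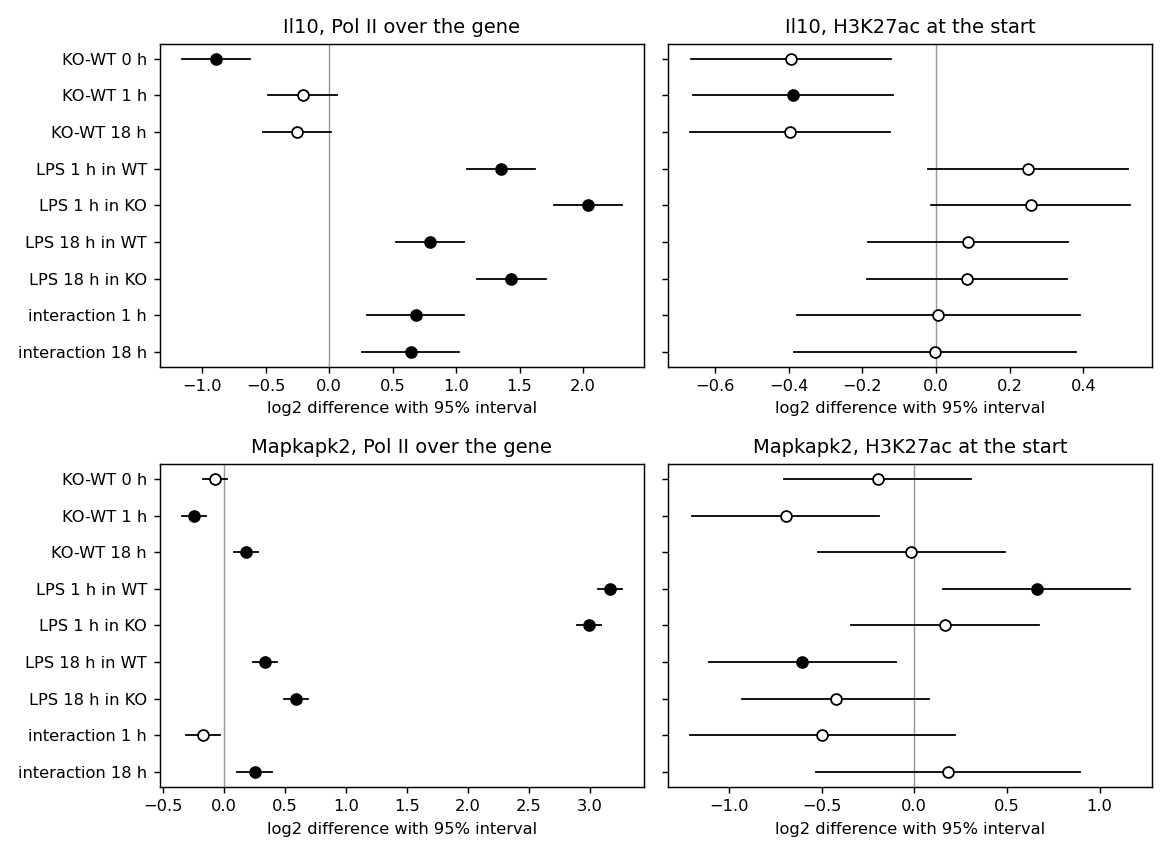
Log2 differences on the log2(tags + 10) scale for Pol II over Il10 and Mapkapk2 and H3K27ac at their starts, with 95% intervals from limma. Rows are KO against WT at 0, 1 and 18 h, LPS against 0 h in each genotype, and the difference of these responses (interaction). Filled points passed an adjusted p of 0.05. Pol II at Il10 in KO against WT is filled at 0 h (-0.89) and open at 1 h (-0.21) and 18 h (-0.25).

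Of 43 genes listed around the IL-10 pathway, 36 could be tested for Pol II between genotypes at 0 h and 1 h and 35 at 18 h. LPS raised 27 of 36 at 1 h in each genotype and lowered 5 in WT and 6 in KO, with medians of 1.23 and 1.09 against -0.82 and -0.62 over all genes. Of all genes tested 86.9% and 82.9% were called at 1 h, 2457 higher and 9054 lower of 13240 in WT and 2736 and 8257 of 13267 in KO. At 18 h 20 were higher and 7 lower in WT, and 19 and 11 in KO, where 66.5% and 70.2% of all genes were called. KO against WT called 3 higher and 0 lower at 0 h, 8 higher and 7 lower at 1 h, and 5 higher and 7 lower at 18 h, with medians of 0.07, 0.01 and -0.13 beside 0.04, 0.24 and -0.10 over all genes. The shares of all genes called were 6.96%, 45.7% and 21.1%, with 560 higher and 361 lower, 4618 and 905, and 971 and 1730. Without replicate 3 of every group 9 and 7 list genes were called at 1 h and 18 h, and in the 500 bp on either side of the start 5 and 2. The difference of responses was called for 2 higher and 5 lower at 1 h and for 3 and 4 at 18 h, where 18.4% and 14.8% of all genes were.

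All 8 tested receptor and signalling genes gained Pol II at 1 h in both genotypes, against 2457 of 13240 genes in WT and 2736 of 13267 in KO. Socs3, the feedback inhibitor that IL-10 and STAT3 induce, rose most: its mean went from 23.4 to 2997 tags in WT (log2 6.51, adjusted p = 1e-17) and from 15.2 to 2309 in KO (log2 6.53, adjusted p = 1.1e-17; limma). Stat3 had 765 ± 45.4 tags in WT and 525 ± 20.8 in KO at 1 h (SD, n = 3; KO - WT -0.53, adjusted p = 0.00023), and 1589 ± 31.3 and 2250 ± 41.3 at 18 h (0.50, adjusted p = 0.0008; limma). Stat3 in KO was thus lower at 1 h and higher at 18 h, with the sets apart at both times. Il10ra, the ligand-binding receptor chain, had 1718 tags in WT and 1957 in KO at 0 h, and its KO - WT differences of 0.19, -0.06 and -0.02 did not pass. Its rise at 1 h was smaller in KO than in WT, by -0.25 (0.43 and 0.67, adjusted p = 0.048 for the difference; limma).

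Among 12 genes of regulators of Il10 transcription, LPS raised 8 and lowered 3 at 1 h in both genotypes, beside the 86.9% and 82.9% of all genes called. Maf, which activates Il10 in macrophages, was among the lowered, from 2577 to 839 tags in WT (log2 -1.61, adjusted p = 2.9e-11) and from 2748 to 761 in KO (log2 -1.84, adjusted p = 5.4e-12), and it was not called between genotypes. KO against WT called 4 of 12 higher and 0 lower at 1 h, and 4 higher and 1 lower of 11 at 18 h, against 4618 higher and 905 lower of 12079 genes at 1 h and 971 and 1730 of 12806 at 18 h. Bhlhe40, known as a repressor of Il10, had 445 ± 43.8 tags in WT and 917 ± 53.8 in KO at 0 h (SD, n = 3; log2 1.03, adjusted p = 5.4e-07; limma). Irf4 was higher in KO at 0 h (48.1 and 114 tags; log2 1.08, adjusted p = 0.0047) and at 1 h (86.6 and 234 tags; 1.33, adjusted p = 0.00015), and at 18 h it was listed at 0 in all WT libraries. Nfil3 was higher in KO at 18 h (306 and 530 tags; 0.77, adjusted p = 7.1e-05).

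In the p38 and MK2 branch, 8 of 12 genes rose and 1 fell with LPS at 1 h in WT, and 9 and 2 in KO, beside the same shares of all genes. Rps6ka5, the gene of the kinase MSK1, rose by 3.38 in WT (adjusted p = 6.5e-15) and 3.25 in KO (adjusted p = 1.2e-14; limma). At 18 h KO was lower than WT for 5 of these 12 genes and higher for 0, where 21.1% of all genes were called (1730 lower of 12806). Mapk14, the gene of p38α, had a response at 18 h that was lower in KO by -0.83 (adjusted p = 2.2e-05). Of the genes beyond the ends of the locus, Rassf5 showed the largest genotype difference with a narrow spread: 6057 ± 187 tags in WT and 2355 ± 344 in KO at 1 h (SD, n = 3; log2 -1.37, adjusted p = 4.8e-09; limma). Its neighbour Eif2d fell by 2.39 (adjusted p = 6.4e-05), but regions overlapping Rassf5 could lend it tags.

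H3K27ac at the starts of the same list was called in 0 of 36 genes for KO against WT at 0 h, in 2 higher and 7 lower of 37 at 1 h, and in 2 higher and 1 lower of 35 at 18 h, where 0.77%, 18.5% and 3.24% of all starts were called. Without KO replicate 1 the called genes numbered 6, 21 and 11, beside 10.4%, 59.8% and 19.1% of all starts. With that replicate alone they numbered 3, 4 and 19, beside 10.4%, 8.94% and 52% of all starts. After 1 h Socs3 acetylation was up by 4.32 in WT and 3.65 in KO, and this response differed by -0.67 (adjusted p = 0.045; limma), or by -0.77 (adjusted p = 4.7e-05) without KO replicate 1 and -0.45 (adjusted p = 0.069) with it alone. The KO - WT difference of Socs3 at 1 h was -0.71 (adjusted p = 0.00066), -0.82 (adjusted p = 7.7e-07) without that replicate and -0.50 (adjusted p = 0.012) with it alone. At 18 h KO - WT was -0.84 for Nfkb1 (adjusted p = 0.0029), and 0.43 and 0.38 for Bhlhe40 and Nfil3 (adjusted p = 0.042 and 0.046). These 3 differences without KO replicate 1 were -0.98, 0.32 and 0.30 (adjusted p = 4.2e-05, 0.021 and 0.017), and with it alone -0.56, 0.67 and 0.53 (adjusted p = 0.0053, 0.0014 and 0.0024; limma). Pol II over Nfkb1 at 18 h went the other way, at 1545 ± 47.3 tags in WT and 2585 ± 79.4 in KO (SD, n = 3; log2 0.74, adjusted p = 1.1e-05), with a response difference of 0.69 (adjusted p = 0.0013; limma).

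**Figure D5:**
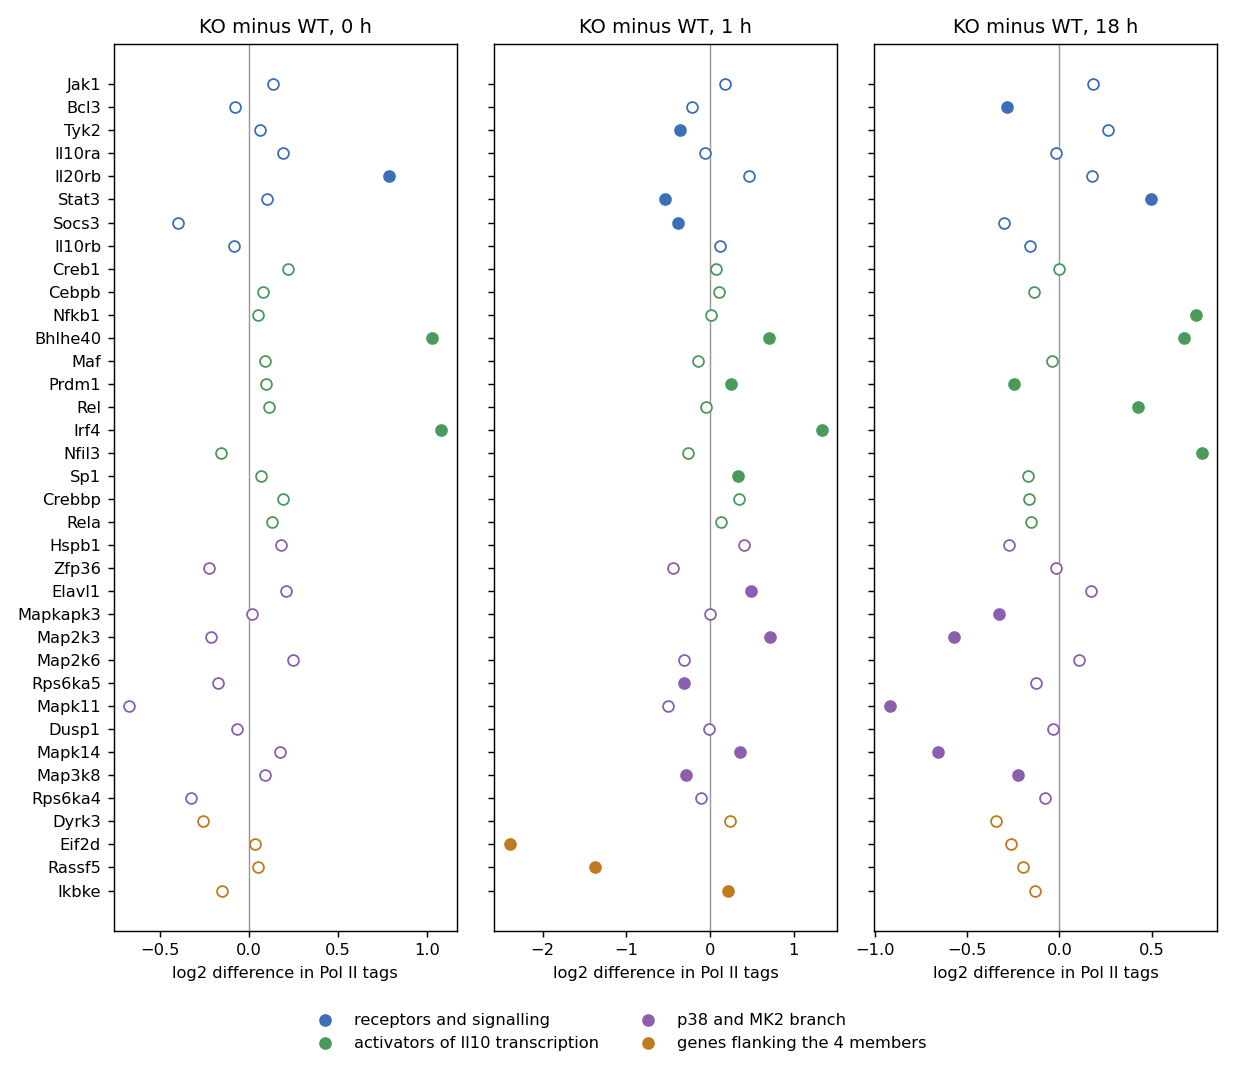
KO - WT log2 difference in Pol II for the tested genes of the IL-10 pathway list at 0, 1 and 18 h of LPS, grouped by role. Filled points passed an adjusted p of 0.05 (limma): 3 genes at 0 h, 15 at 1 h and 12 at 18 h, with Rassf5 at -1.37 and Irf4 at 1.33 at 1 h.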

How the data were processed

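ChIP was done on cells fixed with 1% formaldehyde and sheared to about 400 bp. Per the submitters' processing notes and the study's methods, the authors used Skewer for trimming, HISAT2 2.1.0 for alignment to mm10 and HOMER for region calling, with duplicates removed. The deposited signal is each region's tag count after scaling the library to 10000000 tags; per the file headers, regions were built from 500 bp windows whose Poisson p, set against the average over the genome, was 0.001 or less, joined when under 1000 bp apart, with no input as control. Stitching and even sharing of a region's tags by overlap can move values of short windows.

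Values were summed over GENCODE vM21 genes (54 left out for duplicate symbols) in Python 3.11.15 with pandas 2.3.3 and numpy 2.4.6, and plotted with matplotlib 3.10.9. The merged regions of the genome numbered 65218 for H3K27ac and 70903 for Pol II. The test was limma 3.58.1 (R 4.3.3) with a variance trend on log2(tags + 10), fitted to the 6 groups of 18 libraries of one antibody. Testing required a region in 2 or more of the 3 libraries of either group. P-values were adjusted by Benjamini and Hochberg's method over all features tested, with calls under 0.05. Genes named from the list are, besides fixed ones, up to 3 called genes with the largest change in a contrast whose groups do not overlap. 1 gene of the pathway list is not reported here. The members and lists were chosen with earlier results of these data known. The fitting step was tested on simulated Pol II values of genes found in every library, for KO - WT at 1 h. The Pol II antibody's catalogue number differs between the labels and the article.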

Additional observations from a re-analysis of the deposited data

Results flagged for a closer look

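The response of Pol II to LPS differed between genotypes at both members with signal. For Il10 the response in KO exceeded that in WT by 0.68 on the log2 scale at 1 h (adjusted p = 0.015) and by 0.64 at 18 h (adjusted p = 0.024). For Mapkapk2 it exceeded WT by 0.25 at 18 h (adjusted p = 0.017; limma). Both Il10 values share the same untreated libraries, in which KO Pol II was at the level of its input. The calls were lost under several of the alternatives given for the Pol II values.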

How the results depend on the processing

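Pol II at Il10 and Mapkapk2 rose with LPS at 1 h in both genotypes under all 14 alternatives, with Il10 between 0.84 and 2.2 in WT. Values below are log2 differences. Around the start (500 bp) Pol II gave, for Il10, KO - WT at 0 h -0.24 and response differences of 0.07 (1 h) and 0.05 (18 h), and for Mapkapk2 KO - WT at 18 h 0.15 and a response difference of 0.20 (calls lost; adjusted p = 0.16 and 0.21). Median centring gave Il10 KO - WT at 1 h -0.46 and response difference 0.46 (adjusted p = 0.1), and Mapkapk2 -0.39 for the latter; quantile normalization gave -0.38 for the first, and for Mapkapk2 -0.18 (KO - WT, 0 h), 0.02 (LPS 18 h in WT) and 0.04 (response difference, 1 h). A pseudocount of 50 gave 0.38 for the Il10 response difference at 18 h (adjusted p = 0.053). Without the variance trend Mapkapk2 gave 0.18 and 0.25 (adjusted p = 0.063 and 0.083).

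For H3K27ac at the Il10 start, KO - WT at 1 h lost its call with no filter, with no variance trend and with the replicate block (-0.39 in each; adjusted p = 0.093, 0.053 and 0.06) and in a 1000 bp window (-0.38). That window gave -0.10 (KO) and -0.04 (WT) for LPS at 18 h and -0.02 for the response difference at 1 h, which was -0.02 after centring, -0.01 after quantile normalization and -0.00067 with a pseudocount of 50. The response difference at 18 h was 0.10 after centring and 0.13 after quantile normalization. At the Mapkapk2 start, KO - WT at 1 h was -0.78 after centring and -0.72 after quantile normalization, and at 18 h 0.02 in both. The call of LPS at 1 h in WT was lost with no filter (0.66), after quantile normalization (0.56) and in the 1000 bp window (0.18; -0.09 in KO), and that of LPS at 18 h in WT after centring (-0.61) and with no filter or trend (-0.60). The Pol II region at -101.1 kb gave KO - WT at 1 h -0.03 and -0.02 after centring and quantile normalization.

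Without KO replicate 1 at 1 h and 18 h, the Il10 start gave KO - WT -0.39 (0 h) and -0.36 (18 h), LPS at 1 h in WT 0.25 and response differences of -0.18 and 0.03; the Mapkapk2 start gave KO - WT -1.02 (1 h) and 0.04 (18 h), LPS at 1 h in KO -0.17 and a response difference of -0.83. With that replicate alone the Il10 start gave KO - WT -0.39, -0.02 and -0.46 and LPS at 1 h 0.25 (WT) and 0.62 (KO), the Mapkapk2 start LPS at 1 h in KO 0.83 and response difference 0.17, and the regions at -101.1, -1.0 and +71.0 kb response differences of 0.06, 0.31 and 0.02.

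Leaving out one replicate of every group in turn gave these ranges. For Pol II, Mapkapk2 KO - WT was -0.28 to -0.21 at 1 h (call lost without replicate 2) and 0.17 to 0.21 at 18 h (lost without 2 or 3), its response difference at 18 h 0.22 to 0.28 (lost whichever was left out), and the Il10 response differences 0.57 to 0.90 at 1 h and 0.51 to 0.76 at 18 h (lost without 1 or 3). For H3K27ac at the Il10 start, KO - WT was -0.57 to -0.28 at 1 h (lost without 2 or 3) and -0.44 to -0.34 at 18 h (passed without 1), LPS in WT 0.18 to 0.28 at 1 h (passed without 1) and -0.01 to 0.17 at 18 h, LPS at 18 h in KO -0.03 to 0.16, and the response differences -0.20 to 0.11 and -0.04 to 0.05. At the Mapkapk2 start, KO - WT was -0.35 to 0.07 at 0 h, -1.04 to -0.41 at 1 h (passed without 1) and -0.05 to 0.03 at 18 h, LPS in WT 0.64 to 0.69 at 1 h and -0.63 to -0.58 at 18 h (both lost without 2 or 3), LPS at 1 h in KO -0.07 to 0.57, and the response difference at 18 h -0.12 to 0.37. The response difference at 1 h of the -1.0 kb region was -0.28 to 0.04.

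Same-numbered libraries did not deviate in the same direction (0 of 15 pairs of groups with every correlation above 0.1, for either antibody). For H3K27ac the correlations ran from -0.394 to 0.0531. The lowest were between KO at 1 h and 18 h (-0.394, -0.349 and -0.38 for numbers 1, 2 and 3). There same-numbered libraries deviated in opposite directions, so whether the numbers are only names is not settled. With the replicate block, the H3K27ac call above and the LPS 1 h rise in KO at +6.3 kb (0.74, adjusted p = 0.056) were lost, and no call at the Il10 and Mapkapk2 genes and starts was gained. Genome-wide KO - WT calls at 0, 1 and 18 h were 921 (307 to 1523), 5523 (2412 to 5558) and 2701 (533 to 3127) for Pol II and 91 (20 to 1233), 2186 (29 to 7052) and 372 (49 to 6103) for H3K27ac, over the alternatives; pathway genes called ranged over 1 to 6, 5 to 21 and 2 to 14, and 0 to 6, 0 to 22 and 0 to 19. The causes of these changes were not tested. A value of 0 means no called region, and depth limits what is called.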

Other observations

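Over the 18 Pol II libraries, the genes whose profile on the log2 scale was most like that of Il10, among 13673 genes, were Ccl12 (r = 0.972), Clec4e (0.964), Ly9 (0.959), Icosl (0.956) and Irf1 (0.952). Ccl12, a monocyte-attracting chemokine, had means of 46.9, 325.7 and 101.9 tags in WT and 14.3, 218.7 and 96.4 in KO at 0, 1 and 18 h. Clec4e, a receptor for mycobacterial glycolipid, had 414 tags in WT and 208.3 in KO at 0 h, and Irf1, an interferon-response factor, 945.3 and 619. The genes most like Mapkapk2 were Abtb2 (r = 0.998), Eif3c, Lcp2, 4930469K13Rik and Dse (0.996). These are descriptions over libraries that share depth scaling and LPS times, and genes were ranked by the same values that are given.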
